A study of Mus musculus with 4 samples.

Results

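The antisense RNAs described here are 421 genes of biotype antisense_RNA, out of 2727 antisense RNA genes and 53465 genes in the table. Their level in mouse female germline stem cells (FGSCs) averaged at least 2 FPKM over 4 Long RNA-seq libraries. FPKM stands for fragments per kilobase of exon, divided here by a scaling value of each library. The rule leaves aside *Gas5*, *Zfas1*, *Kcnq1ot1* and genes named *Snhg*, of which *Kcnq1ot1*, *Snhg7os* and *Snhg9* are of this biotype, so that 2724 antisense RNA genes were considered, of which 1802 were above 0 FPKM. The cells were an ovarian FGSC line that carried a lentiviral control shRNA (shNC) or a lentiviral shRNA against *Nat10* (shNAT10), both under drug selection, with 2 libraries per group. NAT10 is the acetyltransferase that writes N4-acetylcytidine (ac4C) into RNA, so the comparison asks which antisense RNAs differ when the writer is depleted. The members were chosen by their mean level over all 4 libraries, so their levels are a description. For members that reached 2 FPKM in the mean of 1 group alone, the difference between the groups bears on membership as well, and the called ones among these are named with the counts.

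An antisense RNA is transcribed from the strand opposite to another gene, called the sense gene here, and the 2 transcripts are complementary wherever their exons overlap. Some antisense RNAs start from the same promoter region as the sense gene and run away from it or into it, others start inside an intron or run into the 3′ end from the neighbouring locus. Members of this class are known to act on the sense gene in chromatin, to mask splice or miRNA sites, to host small RNAs, or to be by-products of transcription. A read from an overlapping exon can be given to the right gene only if the strand is used in counting. The strand setting of the counting is not given in the sources used here, and the records differ on the library kit, so reads of a member and of its sense gene cannot be told apart where their exons overlap.

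Of the 421 members, 417 had a gene model in the GENCODE M21 annotation of GRCm38, and 415 were given a sense gene by position, 412 different genes in all. The largest class lay within the span of the sense gene (199 members). Another 100 members overlapped the 5′ end of the sense gene head to head, and 97 overlapped its 3′ end tail to tail. Only 16 members contained the sense gene, and 3 started next to it and ran the other way without touching it. The members were short RNAs, with a median exon length of 811 nt against 4180 nt for protein-coding genes of at least 2 FPKM. A single exon was annotated for 49 members, 2 exons for 194 and 3 or more for 174.

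Exon overlap with the opposite strand was common. In 396 of 417 members at least 1 exon base lay opposite an exon of another gene, and the median member had 31.3% of its exon bases there. In 33 members every exon base lay opposite an exon. The antisense RNAs under 2 FPKM that were tested and had a gene model had less of it, with a median of 9.86%. They had no overlap at all in 330 of 937 (35.2%), against 21 of 417 members (5.04%). The members were chosen by level, so this difference is given as a description.

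The following stretches of member transcripts show these layouts. They were read from the GENCODE M21 transcripts (GRCm38), 5′ to 3′ on the strand of the antisense RNA. Capitals mark bases that lie opposite a coding exon of the sense gene, where a read without strand fits both genes, and lower case marks bases that lie opposite no coding exon of it. *Gm45507* and *Gm11175* run through coding exons of *Bnip3* and *Jund*, *Gm43109* and *Gm16897* share part of their bases with coding exons of *Vcam1* and *Cd34*, *Gm17473* begins within a coding exon of *Angpt1*, and the stretches of *Clnkos*, *Gm13522* and *2810001G20Rik* lie wholly outside the coding exons of *Clnk*, *Neb* and *Cox10*.
Gm45507 (bases 343 to 519, chr7:138894417-138894675, + strand, spliced): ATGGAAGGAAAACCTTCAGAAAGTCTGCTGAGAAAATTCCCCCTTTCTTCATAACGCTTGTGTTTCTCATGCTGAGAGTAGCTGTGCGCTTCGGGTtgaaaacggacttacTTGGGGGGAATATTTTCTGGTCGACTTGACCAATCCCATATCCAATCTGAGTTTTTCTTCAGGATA
Gm11175 (bases 1 to 120, chr8:70699961-70700080, - strand): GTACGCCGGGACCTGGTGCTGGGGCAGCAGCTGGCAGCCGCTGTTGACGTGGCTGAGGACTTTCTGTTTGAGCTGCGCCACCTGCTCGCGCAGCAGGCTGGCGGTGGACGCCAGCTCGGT
Gm43109 (bases 43 to 183, chr3:116128493-116134965, + strand, spliced): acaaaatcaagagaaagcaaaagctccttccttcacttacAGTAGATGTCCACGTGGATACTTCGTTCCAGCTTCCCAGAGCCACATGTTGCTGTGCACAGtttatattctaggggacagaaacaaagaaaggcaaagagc
Gm16897 (bases 1114 to 1321, chr1:194959036-194959407, - strand, spliced): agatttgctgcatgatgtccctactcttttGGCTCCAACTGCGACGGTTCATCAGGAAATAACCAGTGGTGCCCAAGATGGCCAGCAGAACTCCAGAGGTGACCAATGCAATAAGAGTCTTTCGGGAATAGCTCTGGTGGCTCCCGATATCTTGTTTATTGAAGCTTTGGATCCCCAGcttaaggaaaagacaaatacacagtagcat
Gm17473 (bases 1 to 150, chr15:42676241-42676390, + strand): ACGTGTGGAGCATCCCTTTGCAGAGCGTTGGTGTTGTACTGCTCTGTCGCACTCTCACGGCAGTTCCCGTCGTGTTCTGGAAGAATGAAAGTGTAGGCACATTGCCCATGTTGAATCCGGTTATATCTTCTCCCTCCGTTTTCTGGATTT
Clnkos (bases 1 to 150, chr5:38735983-38741890, + strand, spliced): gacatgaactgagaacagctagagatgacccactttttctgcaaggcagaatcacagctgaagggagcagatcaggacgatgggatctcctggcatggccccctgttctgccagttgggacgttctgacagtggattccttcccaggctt
Gm13522 (bases 1 to 150, chr2:52367063-52367212, + strand): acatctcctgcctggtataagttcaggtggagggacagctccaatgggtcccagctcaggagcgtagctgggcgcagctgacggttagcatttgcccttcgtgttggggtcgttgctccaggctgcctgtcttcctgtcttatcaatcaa
2810001G20Rik (bases 1 to 150, chr11:64079582-64079731, + strand): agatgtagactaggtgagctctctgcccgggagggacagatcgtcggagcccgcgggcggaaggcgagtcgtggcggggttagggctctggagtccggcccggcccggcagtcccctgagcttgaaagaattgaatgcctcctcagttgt
The windows were chosen to leave out untranslated exons. Of the printed bases of *Gm45507*, 162 of 177 lay opposite *Bnip3* coding sequence, against 61 of 141 for *Gm43109* and 148 of 208 for *Gm16897*.

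The levels of the members were low on the whole. The mean over the libraries ranged from 2.04 to 206 FPKM with a median of 4.73, and 223 of the 421 members were under 5 FPKM. A mean of 10 FPKM was reached by 109 members, 50 FPKM by 20 and 100 FPKM by 9. In 340 members every one of the 4 libraries was at 2 FPKM or more, whereas 33 members were under 2 FPKM in the mean of 1 group and passed through the other. Just inside the limit were *1600020E01Rik*, *Gm4673* and *9230104M06Rik* at means of 2.04, 2.04 and 2.05 FPKM, and just outside it were *Gm28535*, *Gm11423* and *A530040E14Rik* at 2.00, 1.97 and 1.97 FPKM. In the 417 members with a gene model, recovered fragments summed over the libraries ranged from 25 to 12132 with a median of 294.

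**Figure D1:**
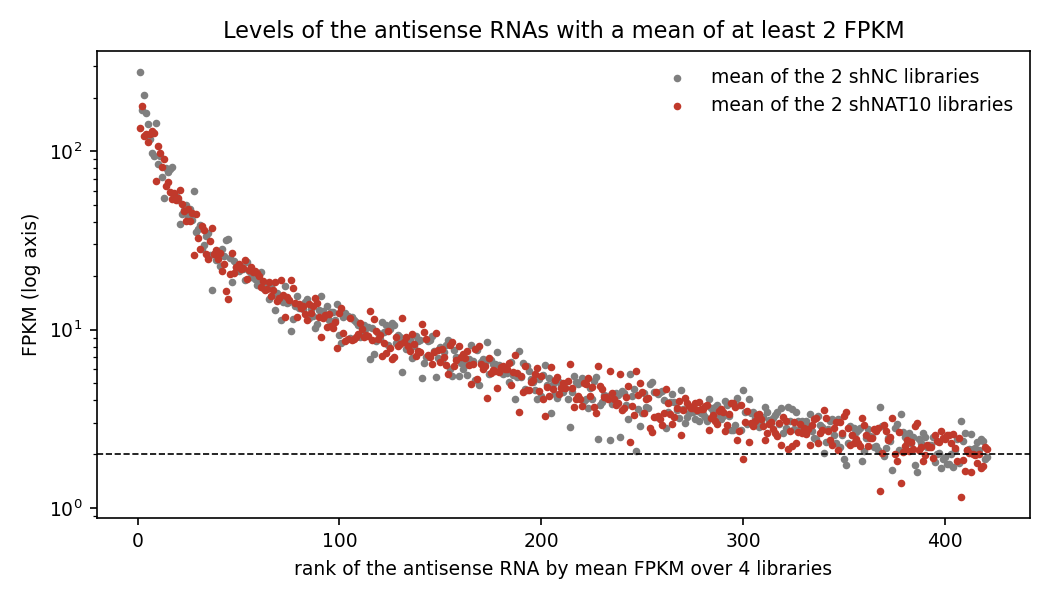
Mean FPKM (log axis) of the 421 antisense RNAs against their rank by the mean over 4 libraries; grey points are the mean of the 2 shNC libraries, red points the mean of the 2 shNAT10 libraries, and the dashed line is the limit of 2 FPKM. By the mean over the 4 libraries, the first 9 ranks are at 100 FPKM or more and 223 members are under 5 FPKM, with grey and red points interleaved along the curve.

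The most abundant member, *Gm45507*, lies on chromosome 7 from 138890964 to 138894675 within *Bnip3*, which encodes a mitochondrial protein that promotes mitophagy. It was at 217 and 339 FPKM in shNC and at 126 and 144 FPKM in shNAT10, so all shNAT10 values were below all shNC values. *Bnip3* itself was at 101, 158, 57.1 and 62.3 FPKM in the same order, with the same library on top. In *Gm45507*, 97.1% of the exon bases lie opposite an exon, and the printed stretch shows the part of them that lies opposite coding exons.

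The next members by level were *Gm30934*, *Gm33051*, *Gm12841* and *Gm44170*. *Gm30934* starts head to head with *Atp5l*, a subunit of the mitochondrial ATP synthase, and was at 153, 188, 173 and 185 FPKM, with overlapping groups (here and below the pair of shNC libraries comes first, then the shNAT10 pair, each by replicate number). Only 16.3% of its exon bases lie opposite an exon, and its level was above that of *Atp5l* (27.8 to 34.5 FPKM). *Gm33051* ends in *Rpl22l1*, a ribosomal protein paralogue, and was at 182, 232, 110 and 132 FPKM. *Gm12841* ends in *Atp6v0b*, a subunit of the vacuolar proton pump, and was at 154, 175, 124 and 125 FPKM. *Gm44170* lies wholly within exons of *Sec61a1*, the channel subunit of the ER translocon, and was at 154, 128, 111 and 115 FPKM. In these last 3 members all shNAT10 libraries were below all shNC libraries. With 2 libraries per group this is common. Both shNAT10 libraries were below both shNC libraries in 24.1% of all tested genes and above them in 23.9%. Among the members the shares were 29.7% and 21.4%.

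Members that lay wholly inside exons of their sense gene were also compared with it in fragments. There were 29 such members, and all 29 had fewer fragments than the sense gene in every library, with a median of 17.1% (range 3.998% to 61.5%) of the sense gene's fragments. The level of a member followed that of its sense gene across the 402 pairs in which both were tested, with Pearson's r of 0.57 between the log2 levels. This is a correlation across genes, which share libraries and, in most pairs, exon bases, and it is given as a description. In 174 of the 402 pairs the member was above its sense gene in mean FPKM.

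The groups were compared with limma on log2(FPKM + 0.1), and a gene was called when it differed by more than 1.2-fold with an unadjusted p no higher than 0.05, which is the study's stated threshold. In total 38 members rose and 61 fell in shNAT10 FGSCs (99 of 421). Of all 20116 genes tested, 8.41% were called higher and 7.83% lower, and of the 9537 genes of at least 2 FPKM 11.2% were higher and 11.9% lower. Among the members 9.03% were higher and 14.5% lower. The median log2 fold change was -0.02 over the members and 0.01 over all genes. The 945 tested antisense RNAs under 2 FPKM had 54 higher and 45 lower.

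No member (0 of 421) had an adjusted p under 0.05 (limma with Benjamini-Hochberg adjustment; smallest 0.0507), against 88 of all 20116 genes and 66 of the 9537 genes of at least 2 FPKM, while 99 had an unadjusted p under 0.05 and limma-voom on the recovered fragments gave 31 members an adjusted p under 0.05. By limma-voom the same held for 1581 of all genes and 1281 genes of at least 2 FPKM. The count of called members depended on single libraries, and was lower without shNAT10-1, without shNAT10-2 or without shNC-2. Fewer of all genes were called in these settings as well, where 1 library is left in a group. In 22 members (13 higher and 9 lower) the call held in each of the 13 alternative settings without a replicate block that could be computed for them. These were *Gm29017*, *Gm16897*, *Gm20633*, *Gm43109*, *Gm4610*, *Clnkos*, *Gm15856*, *Gm16567*, *4930558J22Rik*, *AC167019.3*, *Gm15657*, *Gm20496* and *Gm17080* on the higher side, and *Gm13522*, *Gm12868*, *4930599N23Rik*, *2610206C17Rik*, *Gm40645*, *Gm29585*, *Gm11175*, *Gm17041* and *Gm15646* on the lower side. *Gm15646* has no gene model and so no limma-voom value. Of the alternatives, median-ratio rescaling and a filter at a mean of 1 FPKM left the calls of all 140 genes followed unchanged, so they tested these calls little. The share of all genes whose call held in the same settings was not computed. In 11 called members the mean of 1 group was under 2 FPKM, so these entered the list through the group in which they were higher (*Dnm3os*, *Frmd8os*, *Gm11788*, *Gm26577* and *Gm15777* through shNAT10, and *Rab26os*, *AC154436.2*, *Gm12523*, *2610206C17Rik*, *Gm11521* and *Gm15567* through shNC).

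**Figure D2:**
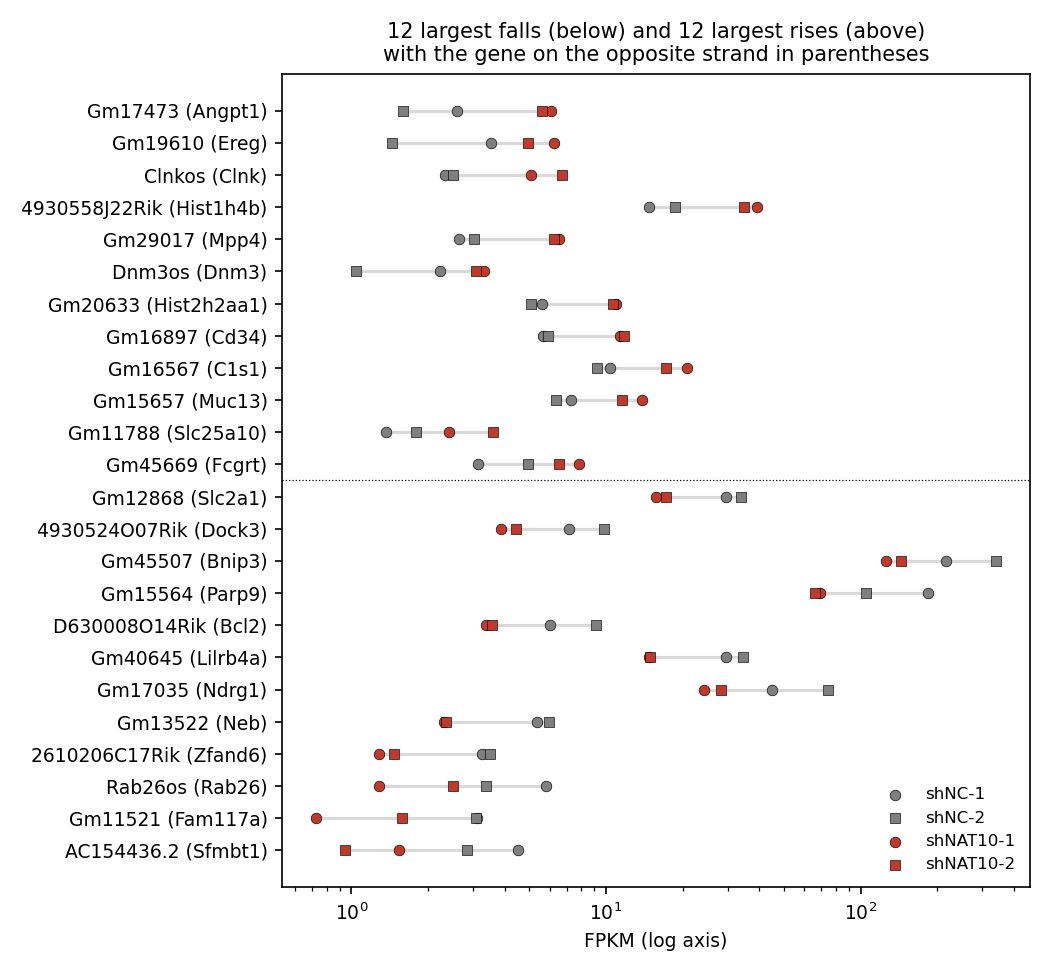
FPKM (log axis) in each of the 4 libraries for the 12 largest falls (below the dotted line) and the 12 largest rises (above it) among the called antisense RNAs, with the sense gene by position in parentheses; grey marks are shNC libraries and red marks are shNAT10 libraries. The 24 were picked from the called members, and grey and red marks do not overlap in any of them. Over all tested genes the groups were apart in 23.9% (shNAT10 higher) and 24.1% (shNAT10 lower). Levels run from 0.73 FPKM in Gm11521 to 339 FPKM in Gm45507.

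The largest rise was that of *Gm17473*, which starts head to head within *Angpt1*, the ligand of the TIE2 receptor. It was at 2.59 and 1.59 FPKM in shNC and at 6.07 and 5.63 FPKM in shNAT10, which gives a log2 fold change of 1.48 (SE 0.26). *Angpt1* was at 11.6 and 8.50 FPKM in shNC and at 28.9 and 31.8 FPKM in shNAT10, which gives a log2 fold change of 1.60 (SE 0.17). Thus both genes were listed higher in both shNAT10 libraries, and 18.1% of the exon bases of *Gm17473*, the printed stretch included, lie opposite an exon, where their reads cannot be assigned to a strand here. *Gm19610*, head to head with the EGF-family ligand gene *Ereg*, was at 3.55, 1.45, 6.25 and 4.96 FPKM, a log2 fold change of 1.25 (SE 0.44) that rests on 87 fragments in all, beside 1.49 (SE 0.14) for *Ereg*. Without shNC-2 it was 0.64 and not called, and the call was also lost without either shNAT10 library.

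*Gm16897* overlaps the 3′ end of *Cd34*, a surface sialomucin of haematopoietic progenitors and endothelium, and was at 5.67, 5.92, 11.3 and 11.8 FPKM, with the 2 groups well apart. Its log2 fold change was 0.98 (SE 0.10), beside 1.05 (SE 0.10) for *Cd34*. *Gm43109*, head to head with the adhesion molecule gene *Vcam1*, was at 11.2, 11.4, 18.1 and 19.9 FPKM, a log2 fold change of 0.74 (SE 0.10), the same as that of *Vcam1* (0.74, SE 0.11). Only 8.10% of the exon bases of *Gm43109* lie opposite an exon, shown by the short run of capitals in its sequence. *Gm16567*, wholly inside exons of the complement protease gene *C1s1*, was at 10.3, 9.21, 20.7 and 17.2 FPKM, a log2 fold change of 0.95 beside 0.92 for *C1s1*.

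In the same direction were *Gm15657* (log2 fold change 0.88), head to head with the mucin gene *Muc13*, and *Gm45669* (0.84), tail to tail with *Fcgrt*, which encodes the neonatal Fc receptor. *Gm11626* (0.62) lies within *Ifi35*, an interferon-induced gene, and *Gm20496* (0.41) opposite *Psmb8*, an immunoproteasome subunit. For these 4 members the sense gene was called higher as well, with log2 fold changes of 0.57 for *Muc13*, 1.34 for *Fcgrt*, 0.64 for *Ifi35* and 0.38 for *Psmb8*. *Gm45669* was at 0.52 and not called without shNC-1, and its call was also lost without either shNAT10 library.

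Among the members that contain a histone gene, *4930558J22Rik*, *Gm20628* and *Gm20633* rose and *Gm20632* was not called by limma on FPKM, though limma-voom on fragments gave it a log2 fold change of 1.12 (adjusted p = 0.0308). Replication-dependent histone genes are small, intronless and packed closely, so long antisense models there contain whole histone genes. *4930558J22Rik*, which contains *Hist1h4b* on chromosome 13, was at 14.8, 18.6, 39.1 and 34.9 FPKM, a log2 fold change of 1.15 (SE 0.15), and *Hist1h4b* had 1.02. *Gm20628*, which contains *Hist2h3b*, was at 50.6, 58.9, 105 and 76.2 FPKM, a log2 fold change of 0.71 (SE 0.18), and held the most fragments of any member (12132 over the 4 libraries). *Gm20633*, which contains *Hist2h2aa1*, was at 5.62, 5.06, 10.9 and 10.7 FPKM, a log2 fold change of 1.01 (SE 0.11). *Gm20632* was at 2.35, 2.53, 9.29 and 3.25 FPKM, with 1 shNAT10 library far above the other. *Hist2h2aa1* and *Hist2h2aa2* are near-identical copies, so their reads and those of RNAs that contain them are uncertain.

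Another 8 of the 21 members that rose with a called sense gene are given here with the gene they lie opposite. *Gm26577* (log2 fold change 0.52) lies within *Myb*, a transcription factor of progenitor cells, *Gm15441* (0.53) contains *Txnip*, an inhibitor of thioredoxin, and *Gm17080* (0.53) lies within *Slc29a1*, a nucleoside transporter. *AC156016.3* (0.57) lies within *Wdhd1*, a DNA replication factor, *Gm15856* (0.58) within the tubulin gene *Tuba8*, and *AC167019.3* (0.64) starts head to head with *Azin1*, an inhibitor of antizyme. *Gm11508* (0.33) starts head to head with the splicing factor gene *Srsf1*, and *Gm42413* (0.42) lies within *Qdpr*, which recycles tetrahydrobiopterin. These 8 were taken from the loci where both genes were called, and a further 14 members rose beside a sense gene that was not called. *Gm26577* was under 2 FPKM in the shNC mean.

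The members that fell were led in level by *Gm45507*, with a log2 fold change of -1.01 (SE 0.24) beside -1.08 (SE 0.23) for *Bnip3*. *Gm17035* lies wholly inside exons of *Ndrg1*, a gene known to be induced by hypoxia and stress, and was at 44.9, 74.6, 24.1 and 28.2 FPKM, a log2 fold change of -1.15 (SE 0.26) beside -1.25 for *Ndrg1*. *Gm12868*, tail to tail with the glucose transporter gene *Slc2a1*, was at 29.6, 33.7, 15.7 and 17.2 FPKM, a log2 fold change of -0.94 (SE 0.11) beside -0.92 for *Slc2a1*. In each of these 3 loci both shNAT10 libraries were below both shNC libraries for the member and for the sense gene, which share 97.1%, 100% and 25.2% of the member's exon bases in that order.

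*D630008O14Rik* lies within *Bcl2*, the inhibitor of apoptosis, and was at 6.05, 9.14, 3.37 and 3.55 FPKM, a log2 fold change of -1.08 (SE 0.22), while *Bcl2* had -0.95. *4930599N23Rik*, tail to tail with the histone demethylase gene *Kdm7a*, was at 6.48, 6.22, 3.17 and 3.41 FPKM, a log2 fold change of -0.93 (SE 0.12), while *Kdm7a* had -1.01. *Gm33051* fell by 0.77 on the log2 scale, and its partner *Rpl22l1* fell by 0.72. *Gm11175*, whose exons lie wholly opposite exons of the AP-1 factor gene *Jund*, was at 77.5, 81.8, 61.0 and 57.1 FPKM, a log2 fold change of -0.43 (SE 0.09), while *Jund* had -0.49.

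Other falls with a called sense gene were those of *Gm17041* (log2 fold change -0.59) within *Cish*, a feedback inhibitor of cytokine signalling, *Gm29585* (-0.53) head to head with *Esyt1*, and *Gm45774* (-0.58) head to head with the metallothionein gene *Mt2*. *Apol7d* (-0.58) starts head to head with the fibronectin gene *Fn1*, *Gm28364* (-0.60) lies wholly within exons of *Aamp*, and *Gm15629* (-0.33) lies within *Lcp1*, the actin-bundling protein of leukocytes. *Gm44170* (-0.32) and *Sec61a1* (-0.41) were both called lower, but *Gm44170* was at -0.19 and not called without shNC-1, and its call was also lost without either shNAT10 library. *Gm12841* (-0.40) fell while its partner *Atp6v0b*, at -0.27, was not called. *AC154436.2* within *Sfmbt1* had the largest fall of all (-1.50, SE 0.34), but on 25 fragments in all, and *Sfmbt1* was not called.

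*Gm40645*, on chromosome 10 at the 3′ end of *Lilrb4a*, was at 29.6, 34.4, 14.8 and 14.9 FPKM, a log2 fold change of -1.10 (SE 0.11). *Lilrb4a*, a receptor gene of leukocytes, is listed at 0 FPKM in all 4 libraries, so no comparison with it could be made. *Gm15564* on chromosome 16 was at 184, 105, 69.4 and 66.3 FPKM, a log2 fold change of -1.03 (SE 0.28). It is 1 of the loci where rRNA-related reads map, and the share of such loci among all fragments moved with it, at 45.7% and 35.6% in shNC and 23.7% and 25.6% in shNAT10. The part of these reads in its value was not tested. Without shNC-1 its log2 fold change was -0.63, and the call was lost without either shNAT10 library.

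Since most members share exon bases with a sense gene, the change of the member was set beside that of the sense gene. Of the 93 called members whose sense gene was tested, 21 rose with a sense gene that was called higher and 27 fell with a sense gene that was called lower. None (0) was called in the opposite direction to its sense gene, while 14 rose and 31 fell beside a sense gene that was not called. In a further 54 pairs only the sense gene was called, 34 higher and 20 lower. Across the 402 pairs Pearson's r between the 2 log2 fold changes was 0.69 and Spearman's rho 0.71. These are descriptions across genes, and the pairs share libraries and bases.

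The pairs were also described by the share of the member's exon bases that lie opposite exons, with no test between the classes. In the 32 pairs whose member lies wholly opposite exons, the median difference in log2 fold change between member and sense gene was 0.085 in size and Pearson's r was 0.89. In the 18 pairs whose member has no exon base opposite an exon, the median difference was 0.45 and r was 0.36. Between these ends, the median difference was 0.16 in 143 pairs with up to 25% of bases opposite exons and 0.17 in 170 pairs with 25% to 75%, both with r near 0.73 and 0.74. The 39 pairs with over 75% but not all had a median difference of 0.16 and r of 0.47. These classes count exons of any gene on the opposite strand, so they do not measure the bases shared with the sense gene itself. The largest difference among these 39 pairs, 1.68, was that of *A930015D03Rik* and *H2-T24*, which share no exon base. The median log2 ratio of member to sense level was -0.50 with no overlap, -0.75 with up to 25%, -0.16 with 25% to 75%, 0.47 with over 75% and 0.72 for members wholly opposite exons.

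**Figure D3:**
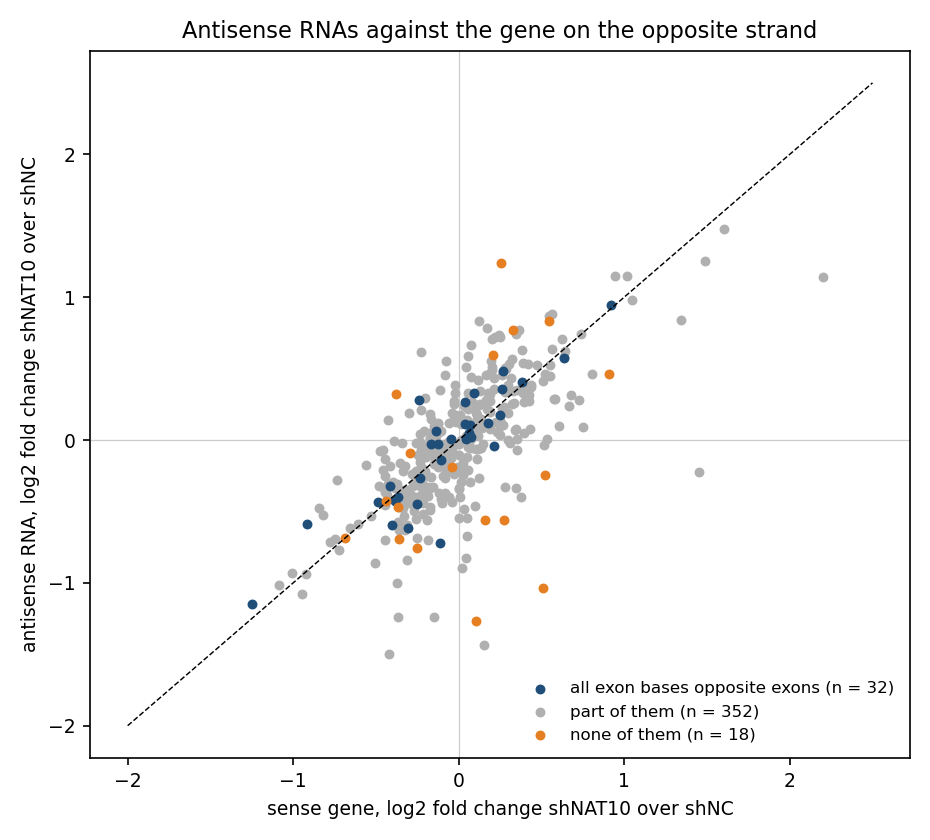
Log2 fold change of the antisense RNA against that of its sense gene (both shNAT10 over shNC) for 402 pairs; blue points are the 32 members whose exon bases all lie opposite exons of the other strand, grey points the 352 with part of them, orange points the 18 with none, and the dashed line marks equal change. Blue points follow the line (median difference 0.085), while orange points scatter around it (median difference 0.45).

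Whether a member changed relative to its sense gene was tested in its own fit, on the log2 ratio of antisense to sense FPKM over 1266 pairs of all levels. In this fit 33 pairs (2.61%) were higher and 52 (4.11%) lower in shNAT10. Among the 402 member pairs 4 were higher (0.995%) and 14 lower (3.48%). None (0) reached an adjusted p under 0.05 (limma with Benjamini-Hochberg adjustment, smallest 0.30), 19 had an unadjusted p under 0.05, and limma-voom on fragments gave 1 pair an adjusted p under 0.05. Without shNAT10-1 the count of called member pairs fell from 18 to 11. The ratios of *Clnkos* to *Clnk*, *2610206C17Rik* to *Zfand6* and *A930015D03Rik* to *H2-T24* were called in all 13 alternatives other than the replicate block.

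*Clnkos* is an RNA of 439 nt with 4 exons in introns of *Clnk*, which encodes an adaptor of immune receptor signalling, and none of its exon bases lies opposite an exon. It was at 2.33 and 2.49 FPKM in shNC and at 5.08 and 6.69 FPKM in shNAT10, from 12, 13, 28 and 45 fragments. *Clnk* was at 61.6, 66.1, 74.5 and 77.9 FPKM. The log2 fold change was 1.24 (SE 0.18) for *Clnkos* and 0.26 (SE 0.08) for *Clnk*, and the ratio rose by 0.99 (SE 0.14) on the log2 scale. Hence the intronic RNA differed more than the gene around it.

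*2610206C17Rik* starts 319 nt from the start of *Zfand6*, a zinc finger gene, and overlaps its 5′ end. It was at 3.24, 3.52, 1.29 and 1.46 FPKM, a log2 fold change of -1.24 (SE 0.16), and *Zfand6* was at 11.2, 13.0, 8.996 and 9.69 FPKM, a log2 fold change of -0.37 (SE 0.12). Both fell, and the ratio fell by 0.87 (SE 0.19) on the log2 scale. *2610206C17Rik* was under 2 FPKM in the shNAT10 mean and entered the list through shNC, the group in which it was higher. Only 3.60% of its exon bases lie opposite an exon.

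The ratio of *A930015D03Rik* to *H2-T24*, an MHC class I-like gene, fell by 1.68 (SE 0.21) on the log2 scale, and here the sense gene moved. *H2-T24* was at 2.46, 3.20, 7.74 and 7.98 FPKM, and *A930015D03Rik* at 8.74, 9.93, 6.81 and 9.28 FPKM with overlapping groups. The pair shares no exon base (0 nt), and the exons that *A930015D03Rik* overlaps belong to other genes.

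Among the other pairs with a called ratio, *Gm13522* fell beside a sense gene that was not called. Its ratio call held in 10 of 13 alternatives, but with only 1 of the 4 libraries left out. *Gm13522* has 10 exons, starts inside the gene of the muscle protein nebulin (*Neb*) and runs out of it. It was at 5.34, 5.94, 2.31 and 2.35 FPKM, a log2 fold change of -1.24 (SE 0.13). *Neb* was at 2.10, 1.60, 1.68 and 1.61 FPKM and was not called, and the ratio fell by 1.09 (SE 0.32) on the log2 scale. *2810001G20Rik* starts 16 nt from *Cox10*, a gene for haem A synthesis, and runs the other way without overlap. It was at 3.46, 3.27, 2.11 and 2.41 FPKM, a log2 fold change of -0.56 (SE 0.15), while *Cox10* was at 4.49, 2.91, 4.64 and 4.15 FPKM. Its ratio fell by 0.83 (SE 0.30) on the log2 scale, a call that held in 9 of 13 alternatives and with 1 of the 4 libraries left out.

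The ratio also fell for *Gm11521* at *Fam117a* (log2 ratio change -1.58, from 35 fragments), *Gm11973* at *Purb* (-0.92), *Gm12195* at *Tbc1d9b* (-0.72) and *Gm15564* at *Parp9* (-1.54), with a called fall of the member in each. It fell with a rise of the sense gene for *Gm28809* at the tetraspanin gene *Cd9* (-0.77), *Gm44085* at *Ppfibp1* (-0.55), *Gm20512* at the adhesion gene *Nectin2* (-0.43) and *Gm20632* at *Hist2h2aa2* (-1.05). The ratio call held in only 5 of 13 alternatives for *Gm20512* and in 7 of 13 for *Gm44085*, and for neither with any library left out. For *Gm17092* at *Hnrnpd* (-0.59) and *Gm17077* at *Usf2* (-0.41) neither gene was called on its own. On the higher side, the ratio rose for *Gm12000* within *Ikzf1* (0.70), the gene of the lymphoid factor Ikaros, which fell, for *AC131759.1* at *Ppp4r3a* (0.60), where the member rose, and for *Gm44876* within the IL-4 receptor gene *Il4ra* (0.31), where neither was called. Of the members called in these pairs, *Gm11521* fell by 0.92 on the log2 scale without shNAT10-1 against 1.43 with all libraries. It was not called without either shNC library. *AC131759.1* was at 0.42 and not called without shNC-2, against 0.67 with all libraries. Its call held with only 1 of the 4 libraries left out.

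**Figure D4:**
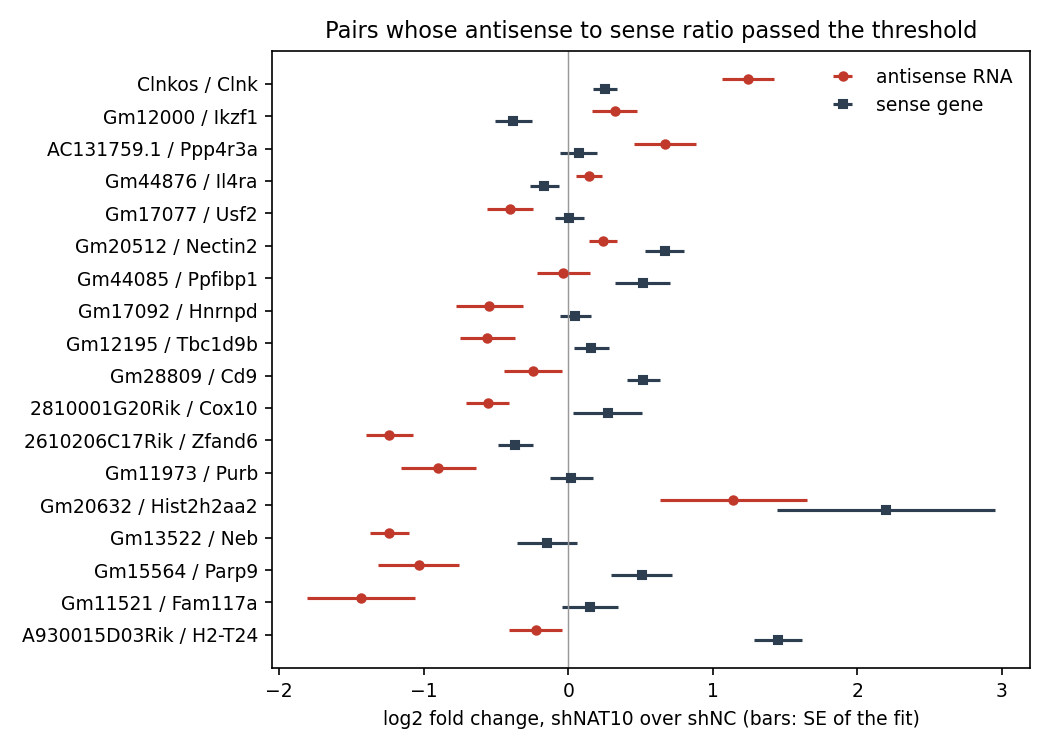
Log2 fold change (shNAT10 over shNC) of the antisense RNA (red circles) and of its sense gene (dark squares) in the 18 pairs whose ratio passed the threshold, sorted by the change in ratio; bars are the SE of the fit. The gap is widest in favour of the antisense RNA in Clnkos and Clnk (1.24 against 0.26) and in favour of the sense gene in A930015D03Rik and H2-T24 (-0.23 against 1.45).

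In the GENCODE M21 models 21 members have no exon base opposite an exon, and the annotation used in the counting is not known. Besides *Clnkos*, *Gm15564*, *2810001G20Rik* and *Gm12195*, the called ones were *Gm4610* within *Bcar3*, *Gm16185* within the mitochondrial carrier gene *Slc25a36*, *Dnm3os* and *Gm15777* on the higher side, and *1700008B11Rik* within *Sh2b3*, *Rab26os* and *1700111E14Rik* within *Dgki* on the lower side. *Gm4610* was at 3.57, 3.26, 6.51 and 5.84 FPKM, a log2 fold change of 0.84 (SE 0.13), and *Gm16185* at 3.24, 2.55, 5.17 and 4.80 FPKM, a log2 fold change of 0.77 (SE 0.17). *1700008B11Rik* was at 4.16, 4.12, 2.26 and 2.57 FPKM, a log2 fold change of -0.76 (SE 0.14). In each of these 3 members the groups were apart and the sense gene was not called. *1700111E14Rik* fell by 0.68 on the log2 scale and *Dgki*, a diacylglycerol kinase gene, by 0.69. Of the 18 pairs of this kind with a tested sense gene, 10 had a called member and 1 had both genes called in the same direction. Of all members 23.5% were called, and of all genes 16.2%.

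Of the 29 members named after a sense gene with an os or as ending, 3 rose (*Dnm3os*, *Clnkos* and *Frmd8os*) and 5 fell (*Arhgap15os*, *Proscos*, *Slfn5os*, *Rab10os* and *Rab26os*), beside 11.2% higher and 11.9% lower among all genes of at least 2 FPKM. The sense gene was found by symbol for 28 of them, and for 21 it was also the sense gene by position. Of the 26 sense genes that were tested, none (0) was called higher and 3 were called lower, namely *Slfn5*, *Scpep1* and *Rab10*. For *Proscos* the symbol of the sense gene has changed, and by position it is *Plpbp*. The others that differ include *Phtf1os*, *Arf4os*, *Man2c1os* and *Brip1os*, which lie opposite *Rsbn1*, *Dennd6a*, *Sin3a* and *Ints2*.

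*Rbm3os* was by far the most abundant of them, at 102, 132, 123 and 126 FPKM, next to *Rbm3*, a cold-inducible RNA-binding protein, at 111, 126, 120 and 134 FPKM. Neither differed between the groups beyond the spread of the libraries, with log2 fold changes of 0.10 (SE 0.14) and 0.10 (SE 0.11), and the ratio changed by 0.00 (SE 0.08). The log2 fold change of *Rbm3os* was -0.08 without shNC-1 and 0.28 without shNC-2. The next, *Far1os*, had a mean over the libraries of 12.7 FPKM, and *Galnt6os* was the lowest, with values from 1.58 to 2.49 FPKM.

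*Slfn5os* starts inside *Slfn5*, an interferon-inducible Schlafen gene, and was at 5.72, 7.26, 4.55 and 4.32 FPKM, beside 6.51, 7.98, 5.43 and 4.52 FPKM for *Slfn5*. The log2 fold changes were -0.53 for both genes, and 64.4% of the exon bases of *Slfn5os* lie opposite an exon. *Rab10os* fell by 0.44 (SE 0.13) on the log2 scale beside 0.35 for *Rab10*, a GTPase of vesicle transport, and 2.33% of its exon bases overlap an exon. *Arhgap15os* was at 6.67, 8.71, 4.93 and 5.67 FPKM, a log2 fold change of -0.52, while *Arhgap15* had -0.22 and was not called. Without shNC-2 *Arhgap15os* was at -0.33 and not called, and the call was also lost without either shNAT10 library. *Proscos* was at 4.60, 4.55, 2.27 and 2.84 FPKM, a log2 fold change of -0.82 (SE 0.16), with *Plpbp* at 0.04.

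*Rab26os* was at 5.82, 3.39, 1.28 and 2.49 FPKM, a log2 fold change of -1.26 (SE 0.41) from 81 fragments, and *Rab26* was at 1.04, 1.00, 1.31 and 0.94 FPKM. The call was lost with any 1 library left out, the shNAT10 mean was under 2 FPKM, its log2 fold change was -0.81 without shNAT10-1, and the ratio change of -1.37 (SE 0.58) did not pass the threshold. *Frmd8os* was at 1.53, 1.93, 2.86 and 2.88 FPKM, a log2 fold change of 0.71 (SE 0.18), with 0.20 for *Frmd8*. By symbol, the ratio of *Tomm6os* to *Tomm6* also passed the threshold, but *Tomm6* is listed at 0 in both shNAT10 libraries and at 0.38 and 0.15 FPKM in shNC. The other 21 members of this group were not called, and their log2 fold changes ran from -0.48 in *Arf4os* to 0.38 in *Brip1os*. By limma-voom on fragments *Brip1os* was called, at 0.40. With 1 library left out its log2 fold change ran from 0.25 to 0.52, and that of *Taco1os* from -0.45 to 0.35.

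**Figure D5:**
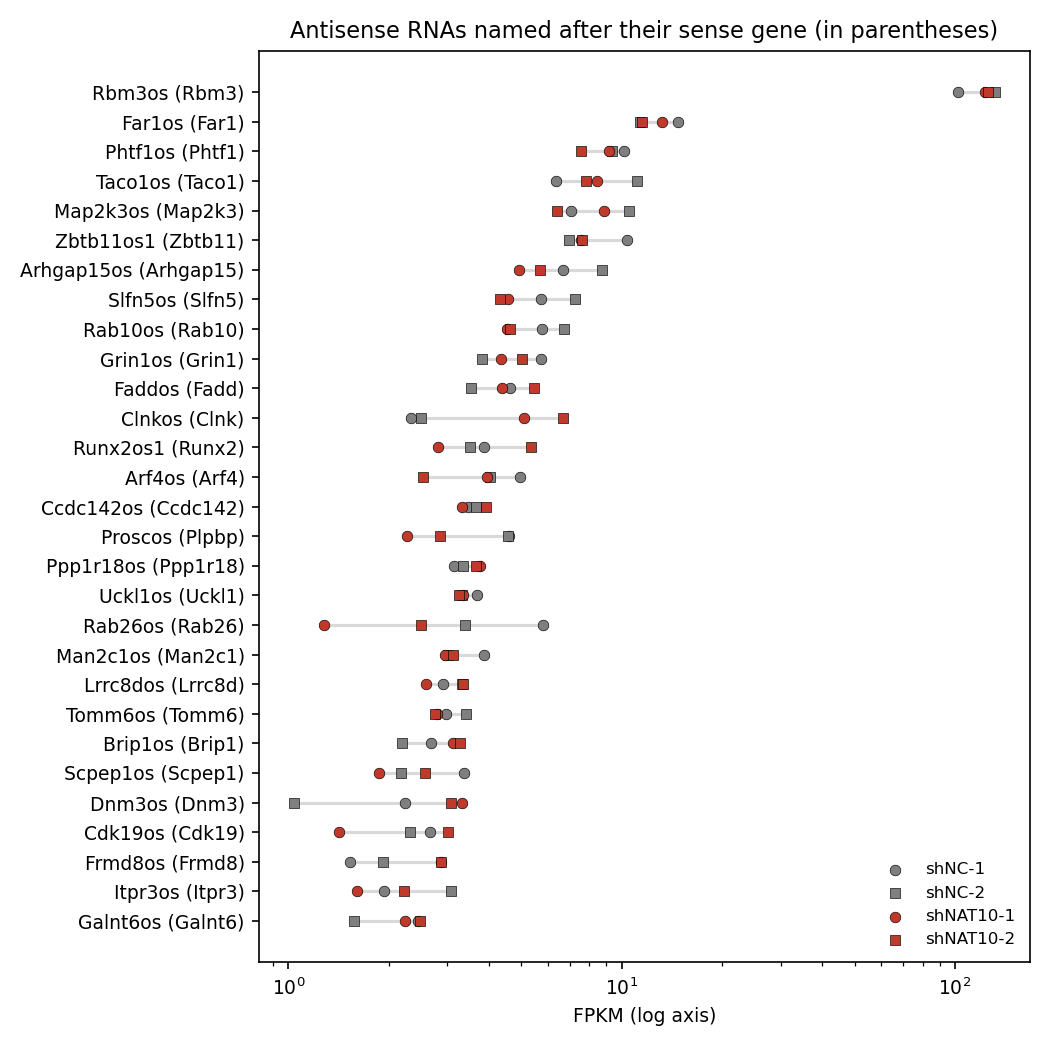
FPKM (log axis) in each of the 4 libraries for the 29 antisense RNAs named after a sense gene (in parentheses), sorted by mean level; grey marks are shNC libraries and red marks are shNAT10 libraries. Rbm3os stands apart at 102 to 132 FPKM with mixed grey and red marks, and in Clnkos both red marks (5.08 and 6.69) lie to the right of the grey ones.

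Among the 417 members with a gene model, 2 hold miRNA hairpins on their own strand, 4 hairpins in all. *Dnm3os*, on chromosome 1 from 162217623 to 162225550 within an intron of the dynamin gene *Dnm3*, is the known host transcript of *Mir199a-2* and *Mir214*, which begin 192 nt and 5746 nt from its start. *Gm15884*, tail to tail with the prohibitin gene *Phb2* on chromosome 6, spans *Mir200c* and *Mir141* in its intron, 442 nt and 847 nt from its start. The mature miRNAs of RefSeq (GRCm38.p6) are shown because they are the miRNAs found within members on the same strand, 5 of the 8 mature forms, without the other arm of *Mir214*, *Mir200c* and *Mir141*, with the seed (bases 2 to 8) in capitals.
mmu-miR-199a-5p: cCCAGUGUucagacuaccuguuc
mmu-miR-199a-3p: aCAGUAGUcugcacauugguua
mmu-miR-214-3p: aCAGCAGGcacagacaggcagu
mmu-miR-200c-3p: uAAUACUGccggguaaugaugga
mmu-miR-141-3p: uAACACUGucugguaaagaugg
The seeds of all 5 differ. *Dnm3os* was at 2.23 and 1.04 FPKM in shNC and at 3.31 and 3.08 FPKM in shNAT10, which gives a log2 fold change of 1.01 (SE 0.37) on 1009 fragments, with both shNAT10 libraries above both shNC libraries. It was under 2 FPKM in the shNC mean and entered through shNAT10, and the call held in 8 of 13 alternatives. It was lost without shNC-2 (log2 fold change 0.50, against 1.53 without shNC-1), without shNAT10-1 (0.96) and without shNAT10-2 (1.06). *Dnm3* stayed between 0.03 and 0.08 FPKM and was not tested. *Gm15884* was at 25.4, 34.5, 33.1 and 39.3 FPKM with overlapping groups, a log2 fold change of 0.28 (SE 0.18), and was not called. Mature miRNAs were not measured in these libraries.

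Antisense RNAs are known substrates of the nuclear RNA exosome and, as part of double strands, of double-strand-binding proteins. Of 30 tested genes of these machineries 3 rose and 2 fell, with a median log2 fold change of 0.04, a share near the 16.2% called over all genes. The exosome subunit gene *Exosc2* was at 17.0, 17.7, 22.7 and 23.8 FPKM (log2 fold change 0.42, SE 0.09), and *Skiv2l2*, the helicase that feeds the exosome, at 11.6, 13.1, 17.0 and 16.5 FPKM (0.44, SE 0.10). The cap-binding subunit gene *Ncbp2* rose by 0.61 (SE 0.15) on the log2 scale. The exosome cofactor gene *Mphosph6* fell by 0.66 (SE 0.21) and *Stau2*, a double-strand-binding protein gene, by 0.31 (SE 0.11) on the same scale. The RNA-editing gene *Adar* (0.20), *Dicer1* (-0.22) and *Drosha* (0.08) were not called. Without shNAT10-1 the 5 calls fell to 2, and without shNAT10-2 to 1.

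Of 23 long noncoding RNAs listed for antisense or neighbouring loci known from textbooks, which the table files under antisense_RNA, lincRNA or processed_transcript, 6 were listed at 0 in all 4 libraries, *Hottip*, *Hoxa11os* and *Six3os1* among them, and 12 were tested. *Tsix* and *Airn* were at means of 0.0035 and 0.08 FPKM. *Zeb2os*, at 1.84, 2.31, 1.26 and 1.69 FPKM, lay just under the limit of 2 FPKM and was not called. Only *Gas5* and *Zfas1*, which the rule leaves out, were called, both lower, with log2 fold changes of -0.50 and -0.49.

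*Nat10* itself was at 7.79 and 5.42 FPKM in shNC and at 2.95 and 3.04 FPKM in shNAT10, which gives a log2 fold change of -1.09 (SE 0.21; two-sided exact permutation p = 0.3333, the smallest that 2 libraries against 2 allow). The libraries held 11057922 to 14902438 fragments on genes, of which the members took 0.366% and 0.437% in shNC and 0.534% and 0.515% in shNAT10. In the same libraries the rRNA-related share was 45.7% and 35.6% in shNC and 23.7% and 25.6% in shNAT10, and the summed FPKM of the members was 5303, 5517, 5053 and 5109. The germline markers *Dazl*, *Pou5f1*, *Dppa3* and *Stra8* were at 0 in all libraries and *Ddx4* was at 0 in 3 of them. A listed 0 is not shown to be lack of expression in this table, since the exosome subunit gene *Exosc6* is at 0 in all 4 libraries as well, so these markers do not settle the labelled cell type. The 11 germline markers summed to 12.5 and 24.7 FPKM in shNC and to 30.2 and 36.9 FPKM in shNAT10, most of it *Ifitm3*, and 0 of the 4 tested were called. The 4 pan-leukocyte markers summed to 340 and 384 FPKM in shNC and to 285 and 299 FPKM in shNAT10, with *Cd53* and *Laptm5* called lower, and the 7 mast cell markers to 271 to 291 FPKM, most of it *Cpa3*, with *Ms4a2* called higher, *Kit* called lower and *Fcer1a* and *Tpsb2* at 0. The 3 macrophage markers summed to 47.7 and 52.4 FPKM in shNC and to 37.0 and 41.6 FPKM in shNAT10, with *Adgre1* called lower, the 5 fibroblast markers to 44.2 to 59.5 FPKM over all libraries, with *Pdgfra* called higher, the 5 granulosa cell markers to at most 0.49 FPKM and the 3 oocyte markers to at most 0.21 FPKM. The part of these cells in the results was not tested, and in bulk RNA fewer cells of a type and less RNA per cell cannot be told apart.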

How the data were processed

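RNA of shNC and shNAT10 FGSCs was sequenced as Long RNA-seq, with 2 libraries per group, which the paper counts as biological replicates. Nothing in the labels ties a library to a separate culture, so p-values measure the spread between these libraries. According to the methods, the authors depleted rRNA, aligned with HISAT2 and used DESeq2; the labels name an mRNA isolation and other kits, and the processing notes add cutadapt and mm10. The counter, its annotation and its strand setting are not given in the sources used here. The authors deposited FPKM per gene and library, and a second table of their own fold changes, p-values and adjusted p-values, which was not used. Unused columns of single libraries numbered 0.

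FPKM times the exon length of GENCODE M21 rises in equal steps, so fragments were recovered (96.0% to 96.6% of values under 50 fragments within 0.02 of a whole number). Genes with a mean of at least 0.1 FPKM (20116) were tested on log2(FPKM + 0.1), which understates low genes, with limma 3.58.1 in R 4.3.3 (trend, two-sided, Benjamini-Hochberg adjustment). The same fit was run on antisense to sense ratios. In simulated data for all genes (19413), 195 of 200 changed genes were called and 4.57% of the unchanged. The changed genes were drawn from well-counted genes, and the raised ones had a median fitted log2 fold change of 1.43. The spread between libraries was set, not taken from these data. Called members went down to 0.33 and -0.28, and changes of that size, or in genes with few fragments, were not simulated. The sense gene was taken by position (the overlapping gene on the opposite strand, or a start nearby) and by symbol. Members and gene lists were chosen with earlier results of these data known. The rule names called members, the 5 most abundant, os or as members, members with a called ratio, the 3 genes on each side of the limit, and *Nat10*; other genes, *Gm15884* among them, were picked with their values in view. Alternatives were other pseudocounts, filters, scalings, limma without the trend, limma-voom, a replicate block, other limits for the members and each library left out. Counting error only is covered by fragment numbers, because PCR copies are not told apart. Python 3.11.15 with numpy 2.4.6, pandas 2.3.3, scipy 1.17.1 and matplotlib 3.10.9 did the rest.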

Additional observations from a re-analysis of the deposited data

How the results depend on the processing

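Of the 421 members 38 were higher and 61 lower. The counts moved by over 1.5 times under limma without the trend (23 higher, 31 lower) and for members of at least 5 FPKM (24 higher, 36 lower), where fewer genes are counted. With 1 library left out, 17 to 40 were higher and 29 to 45 lower, and the lone library is assumed to vary like the others. The median log2 fold change of the members, -0.02, became 0.02 with the same FPKM total without rRNA-related loci, and ran from -0.0493 to -0.0009 with 1 library left out. The 18 called ratios became 29 with a pseudocount of 1 and 7 without the trend, and 11 to 18 with 1 library left out. Of the sense genes by symbol, 1 was higher under the same FPKM total and under quantile normalization, and 0 to 1 with 1 library left out; 1 was lower without the trend, 5 under limma-voom, and 1 to 4 with 1 library left out. By position, 55 sense genes were higher and 47 lower, since 402 are counted. The calls over all genes ran from 2007 to 3393 and those of the exosome and double-stranded RNA genes from 1 to 7 with 1 library left out, the latter being 3 without the trend. The textbook antisense RNAs had 5 calls under limma-voom. No result changed sign as a call. Causes were not tested where none is given.

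Same-numbered libraries did not deviate together (Pearson's r 0.007 over 20116 genes), so the numbers were not taken as pairs. With the replicate block 49 members were higher and 64 lower, 18 ratios were called, and 3114 of all genes, against 3267 without it; it was run only as an alternative.

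Depth limits the low members: 68 of the 417 with a gene model had fewer than 100 fragments over the 4 libraries.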
